A study of Homo sapiens with 6 samples.

Results

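Small Cajal body RNAs (scaRNAs) were described in MDA-MB-231 cells, a triple-negative human breast cancer line, after transfection with small interfering RNAs (siRNAs). The members were all genes whose symbol in the array's annotation starts with SNORD, SNORA or SCARNA followed by digits, without a host-gene suffix. These 23 genes, of 14884 genes named, all carried a SCARNA symbol. The C/D (SNORD) and H/ACA (SNORA) classes of small nucleolar RNA had 0 named members each, so both are not analysed here. Each of the 23 genes had 1 probe set.

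The 3 groups were cells given siATM, which targets the kinase ATM, cells given sip53, which targets the transcription factor p53, and cells given the control siRNA siNC. All cells were grown in 1 medium and transfected with the same lipid reagent, and each group had 2 samples, each hybridised to its own Affymetrix Human Gene 2.0 ST array. Whether the 2 were grown and transfected apart is not stated in the labels. The p-values below therefore reflect no more than the differences among these 6 samples, and those may be technical. The series asks what changes when ATM or p53 is targeted; the targeted transcripts and so the depth of each knockdown are not analysed here.

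ScaRNAs guide the chemical modification of spliceosomal small nuclear RNAs (snRNAs), in the Cajal body, a nuclear compartment organised around the protein coilin. Box C/D guides direct methylation of the ribose, box H/ACA guides direct the conversion of uridine to pseudouridine, and mixed scaRNAs carry both kinds of domain. Most human scaRNAs are cut out of an intron of another gene, so transcription of the surrounding gene makes both RNAs, while SCARNA2 is known to be transcribed from a promoter of its own. A probe set reads any RNA that carries its sequence, so mature scaRNA and unspliced RNA of the surrounding gene cannot be told apart on these arrays.

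Of the 23 scaRNAs, 17 had a mean log2 value over the 6 arrays of 5.96 or more, the middle value over all probe sets, and were tested among 10640 genes. The other 6 (SCARNA1, SCARNA3, SCARNA11, SCARNA14, SCARNA15 and SCARNA23) lay below it and were not tested. SCARNA8 at 6.29 was the member just above that limit and SCARNA11 at 5.69 the one just below. Within a group, tested scaRNAs varied more than the average gene. Their median SD between arrays of 1 group was 0.110 on the log2 scale, against 0.0678 over all genes tested. Array medians were 5.95 to 5.98 on the log2 scale. Of the markers of the line, VIM, CD44, FN1 and AXL were named and all passed the limit. ESR1 and PGR, the hormone receptors that triple-negative cells lack, lay below it on every array. The other named luminal markers, GATA3, EPCAM, KRT8 and KRT18, passed it, with mean log2 values of 8.40, 9.02, 8.01 and 11.86. In bulk RNA, a change in the share of cells and a change in RNA per cell cannot be told apart.

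**Figure D1:**
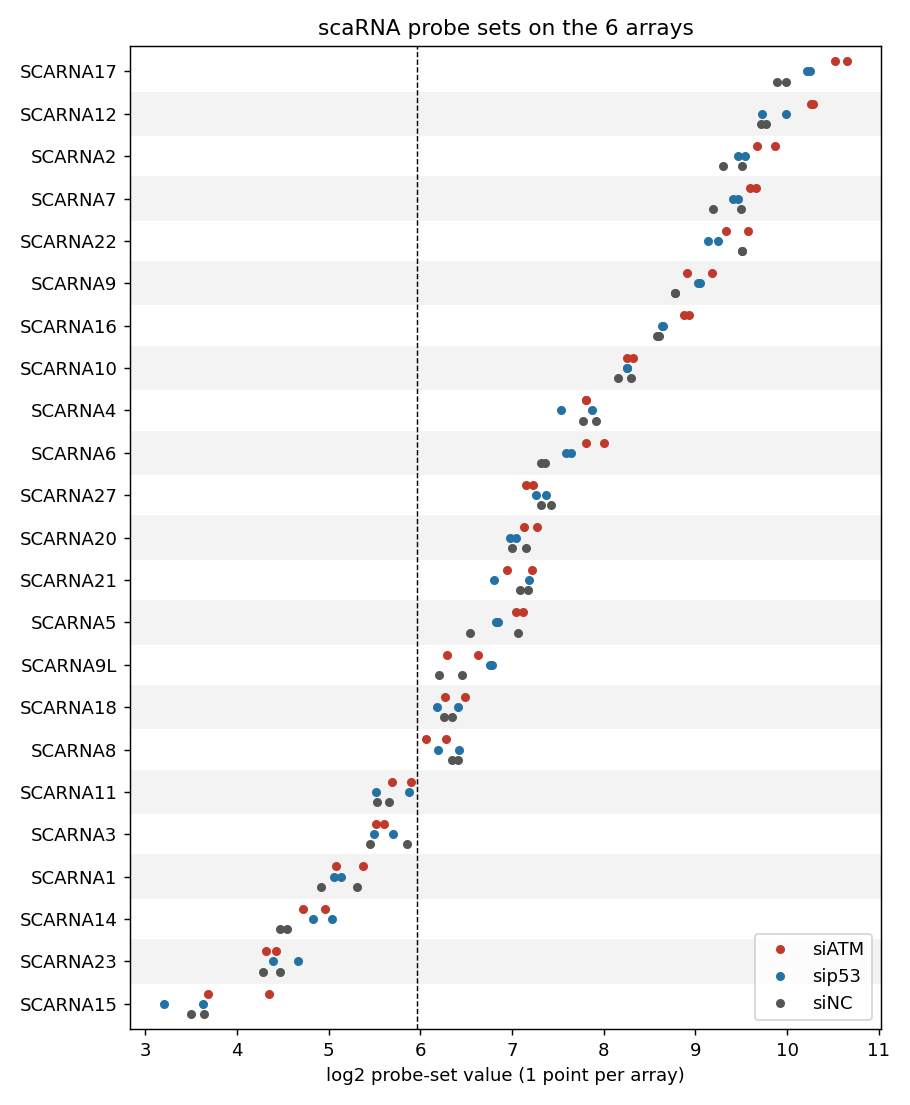
Log2 value of each of the 23 scaRNA probe sets (rows, brightest at the top) on the 6 arrays, 1 point per array, for siATM (red), sip53 (blue) and siNC (grey). The dashed line marks 5.96, the limit for testing; brightness is not comparable between probe sets. In SCARNA17 the siATM points lie right of the sip53 points, which lie right of the siNC points.

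After siATM, 5 of the 17 tested scaRNAs were higher than with siNC and 0 were lower (limma, adjusted p below 0.05). They were SCARNA17, SCARNA6, SCARNA12, SCARNA2 and SCARNA16, between 1.24-fold and 1.57-fold higher. Over all genes tested, 25.5% were called, 12.5% higher and 13% lower. At an unadjusted p below 0.05, 7 scaRNAs were higher and 1 lower. The median log2 fold change of the 17 was 0.14, and that of all genes tested was -0.00062. The scaRNA median was 0.24 without siATM replicate 2 and 0.28 with the filter at the 70th percentile. Of the 17, 12 were above 0, against 49.9% of all genes tested. Over all 23 members the median was 0.14, with 16 above 0.

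SCARNA17, also named U91, is a box C/D guide for the U4 snRNA. Its log2 value was 10.52 and 10.65 with siATM, against 9.98 and 9.89 with siNC. The groups did not overlap, and the mean was 10.59 ± 0.09 with siATM and 9.93 ± 0.07 with siNC (SD, n = 2 each). The log2 fold change was 0.65 (SE 0.07, limma adjusted p = 0.00108), or 1.57-fold.

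SCARNA6 (U88) and SCARNA12 (U89) are mixed guides with a C/D and an H/ACA domain. SCARNA6 had log2 values of 7.81 and 8.001 with siATM, against 7.36 and 7.32 with siNC. SCARNA12 had 10.28 and 10.26 with siATM, against 9.77 and 9.72 with siNC. In both genes each siATM array was above each siNC array. SCARNA6 was 1.48-fold higher (log2 fold change 0.56, SE 0.08, limma adjusted p = 0.00248), and SCARNA12 was 1.45-fold higher (0.53, SE 0.09, limma adjusted p = 0.00526).

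SCARNA16 (ACA47) is a box H/ACA RNA, and it was the only called member of that kind. Its log2 values were 8.93 and 8.87 with siATM, against 8.61 and 8.58 with siNC. The groups were apart and tight, and the log2 fold change was 0.31 (SE 0.06, limma adjusted p = 0.00747). SCARNA2, a box C/D guide for the U2 snRNA, had 9.67 and 9.87 with siATM, against 9.30 and 9.51 with siNC. Its groups were less well separated, with a log2 fold change of 0.36 (SE 0.09, limma adjusted p = 0.0293). SCARNA2 lost its call without siATM replicate 2 or without siNC replicate 1, with an adjusted p of up to 0.150, and without the filter on dim genes (0.0736). The other 4 kept theirs whichever array was left out, although SCARNA16 came to an adjusted p of 0.0499.

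The remaining long members did not pass. SCARNA7 (U90), a box C/D guide for U1, had log2 values of 9.66 and 9.59 with siATM, against 9.49 and 9.20 with siNC. Its log2 fold change was 0.28 (95% interval 0.06 to 0.51, adjusted p = 0.0714 by limma). SCARNA9, a box C/D guide for U2, had 9.18 and 8.91 with siATM, against 8.78 and 8.78 with siNC. Its log2 fold change was 0.26 (0.06 to 0.47, adjusted p = 0.0674 by limma). In both, every siATM array was above every siNC array, as in 31.9% of all genes tested, although the adjusted p missed the threshold.

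SCARNA5 (U87), which lies in the same gene as SCARNA6, had 7.05 and 7.12 with siATM, against 6.54 and 7.07 with siNC. The siNC arrays differed by more than the groups, and the interval of the difference ran from -0.07 to 0.63. SCARNA10 (U85), the mixed guide for U5, had 8.32 and 8.26 with siATM, against 8.30 and 8.15 with siNC, and its interval ran from -0.09 to 0.22. SCARNA9L, a sequence named as SCARNA9-like, had 6.63 and 6.29 with siATM, against 6.20 and 6.45 with siNC. Probe sets of SCARNA9 and SCARNA9L may share sequence, so their values are not independent.

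The short members gave no call. SCARNA22 (ACA11), an H/ACA RNA with no known snRNA target, had 9.34 and 9.58 with siATM, against 9.50 and 9.50 with siNC. The 2 groups overlapped, and the interval of its log2 difference was -0.25 to 0.16. SCARNA27 had 7.15 and 7.23 with siATM, against 7.43 and 7.32 with siNC, a log2 difference of -0.18 (-0.35 to -0.02, limma adjusted p = 0.1002). The other 5 tested short members, SCARNA4, SCARNA8, SCARNA18, SCARNA20 and SCARNA21, had log2 differences from -0.21 (SCARNA8) to 0.13 (SCARNA20). Among the 6 untested members the differences ran from -0.09 (SCARNA3) to 0.44 (SCARNA15), and SCARNA15 had 4.35 and 3.68 with siATM, against 3.64 and 3.50 with siNC. Counting tested members whose groups did not overlap, 7 were higher and 2 lower with siATM, where 31.9% of all genes tested were apart upward and 30.8% downward.

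**Figure D2:**
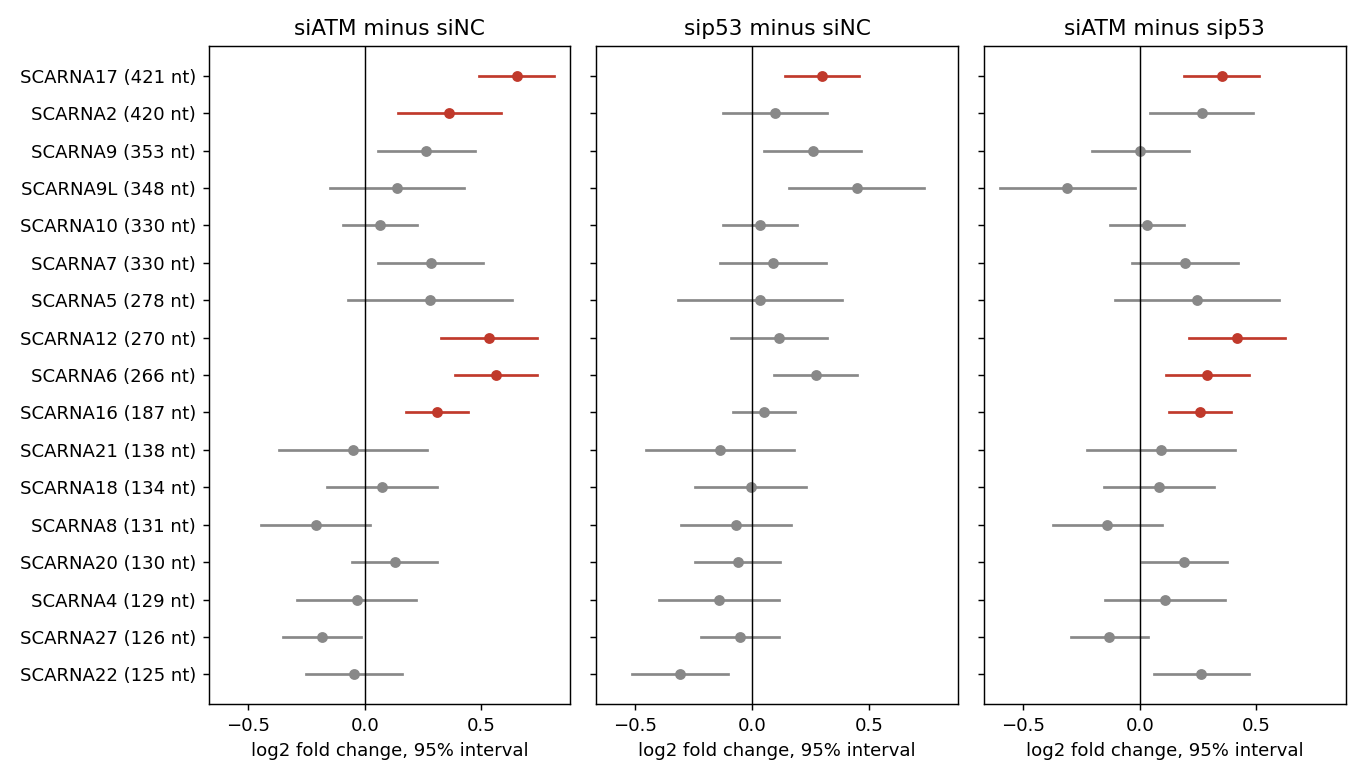
Log2 fold change with its 95% interval for the 17 tested scaRNAs, ordered from the longest transcript at the top to the shortest, in 3 comparisons; red marks an adjusted p below 0.05. The red points number 5 for siATM minus siNC, 1 for sip53 minus siNC and 4 for siATM minus sip53, and all of them belong to transcripts of 187 nucleotides or more.

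Transcript length, taken from RefSeq for all 23 members, moved with the change after siATM. The 10 members of 187 to 421 nucleotides were all tested, all 10 had a positive fold change, and 5 were called higher. Of all genes tested, 49.9% had a positive fold change and 12.5% were called higher. The 13 members of 125 to 166 nucleotides gave 7 tested ones, of which 2 were positive, 5 negative and 0 called (limma; 0 higher and 1 lower at an unadjusted p below 0.05). Median log2 fold changes of tested members were 0.30 for the long and -0.05 for the short ones. Over all 23 members, Spearman's rho of length with the log2 fold change was 0.54, given as a description over genes that share the same arrays. The split at 180 nucleotides was chosen after the values were seen and has no test.

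Length also went with brightness (rho 0.48) and with the kind of guide. The 4 box C/D and 4 mixed guides were 266 to 421 nucleotides long, and the 12 box H/ACA guides 125 to 187. The other 3, SCARNA3, SCARNA27 and SCARNA9L, of 126 to 348 nucleotides, were not assigned a kind. Kinds were assigned by hand from general knowledge of these RNAs and not from the annotation of the array. Median log2 fold changes after siATM were 0.32 for box C/D, 0.41 for mixed and -0.03 for the 7 tested box H/ACA guides. Of these kinds 2, 2 and 1 were called higher, where 12.5% of all genes tested were. Length, brightness and kind of guide cannot be told apart over these members. The labels name a column kit for RNA extraction, and such columns are known to retain short RNAs poorly. Its part in the result was not tested.

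**Figure D3:**
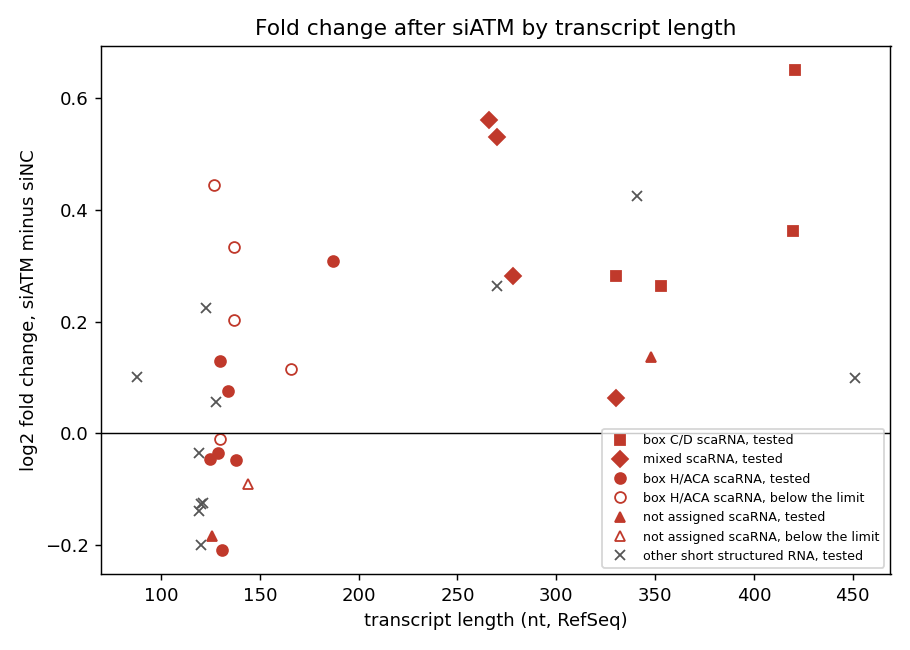
Log2 fold change, siATM minus siNC, against transcript length in nucleotides for the 23 scaRNAs (red; open symbols below the limit for testing; symbol shape gives the kind of guide) and 11 other short structured RNAs (crosses). All 10 scaRNAs of 187 nucleotides or more lie above 0, and the shorter ones lie on both sides.

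Other short structured RNAs, chosen after their values were seen, were set beside the scaRNAs. Of 11 tested, 2 were higher with siATM and 0 lower (limma; the same 2 and 0 at an unadjusted p below 0.05), against 12.5% and 13% of all genes tested. Counts this small do not set the list apart. RPPH1, the RNA of RNase P, which trims the leader of transfer RNA precursors, had 7.51 and 7.58 with siATM, against 7.19 and 7.05 with siNC. It was higher by 0.43 on the log2 scale (SE 0.07, limma adjusted p = 0.00628). RPPH1 was also higher by 0.30 with siATM than with sip53 (limma adjusted p = 0.0207), a call lost without siATM replicate 2 or sip53 replicate 1 (up to 0.126). RMRP, the RNA of RNase MRP, which acts in ribosomal RNA processing, had 12.66 and 12.63 with siATM, against 12.43 and 12.33 with siNC. Its log2 fold change was 0.26 (SE 0.07, limma adjusted p = 0.0280), and it lost the call without any 1 siATM or siNC array.

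These RNAs are 341 and 270 nucleotides long. TERC, the telomerase RNA, which carries an H/ACA domain and passes through Cajal bodies, has SCARNA19 as an older name and is 451 nucleotides long. It had 10.71 and 10.71 with siATM, against 10.61 and 10.61 with siNC, a log2 difference of 0.10 that did not pass (limma adjusted p = 0.348). The other 8, all of 128 nucleotides or less, gave 0 calls. Among 348 tested microRNA genes, whose probe sets also read short RNAs, 18 were higher and 19 lower, with a median of -0.03. These are smaller shares than the 12.5% and 13% of all genes tested, with no test of the difference.

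Of the 23 scaRNAs, 22 lie within the bounds of another gene in RefSeq and SCARNA2 in none. RefSeq's table gives no strand, so the surrounding gene is a host only where its strand is the same. For 13 members such a gene was named on the array, 12 genes in all, and in 10 pairs both were tested. After siATM the scaRNA had a higher fold change than the gene around it in 8 of these 10 pairs, and both had the same sign in 4. No test of the difference within a pair was made.

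ATG16L1, a component of the machinery that forms autophagosomes, surrounds SCARNA5 and SCARNA6. It had 8.53 and 8.54 with siATM, against 8.83 and 8.79 with siNC. It fell by 0.28 on the log2 scale (SE 0.05, limma adjusted p = 0.0104), while SCARNA6 rose by 0.56. The call of ATG16L1 was lost without siNC replicate 1 (adjusted p = 0.0677). PHB2, the prohibitin gene around SCARNA12, had 11.08 and 11.09 with siATM, against 11.09 and 11.06 with siNC. The log2 difference of PHB2 was 0.01 (SE 0.05) where that of SCARNA12 was 0.53.

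SNHG20, a long non-coding RNA gene around SCARNA16, had 8.90 and 8.99 with siATM, against 8.83 and 8.88 with siNC. Its log2 difference of 0.09 (SE 0.06, limma adjusted p = 0.295) did not pass, and that of SCARNA16 was 0.31. KPNA4, an importin gene around SCARNA7, had a log2 difference of -0.27 (SE 0.08, limma adjusted p = 0.0516), against 0.28 for SCARNA7. NSD2, a histone methyltransferase gene around SCARNA22, had 9.26 and 9.25 with siATM, against 9.82 and 9.77 with siNC. NSD2 was lower by 0.54 (SE 0.06, limma adjusted p = 0.00135), while SCARNA22 inside it differed by -0.05. CEP295, CHD3, KHDC4 and TMEM167A, around SCARNA9, SCARNA21, SCARNA4 and SCARNA18, had differences from -0.05 to 0.17 and were not called. TIPIN, a replication fork protein gene around the untested SCARNA14, had log2 differences of -0.46 with siATM and 0.27 with sip53, each against siNC (limma adjusted p = 0.00255 and 0.0386). The chromatin remodeller gene CHD4, around the untested SCARNA11, had -0.12 with siATM and was not called, and FSD2, around SCARNA15, was not tested. The sip53 call of TIPIN was lost without either sip53 or either siNC array (up to 0.177).

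**Figure D4:**
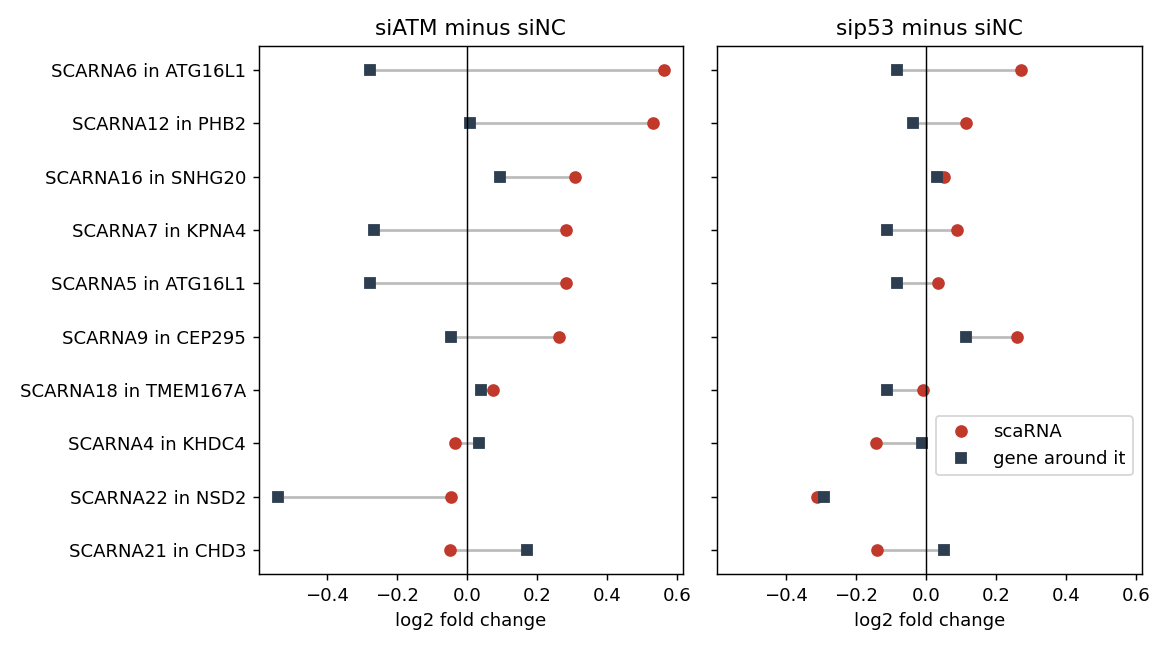
Log2 fold change of a scaRNA (red circle) and of the gene whose bounds hold it (dark square) in the 10 pairs where both were tested, for siATM minus siNC on the left and sip53 minus siNC on the right. After siATM the SCARNA6 circle lies at 0.56 and the ATG16L1 square at -0.28.

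The promoters of the genes around SCARNA6, SCARNA12 and SCARNA16 are shown because these genes are set beside the scaRNAs inside them. Whether they are the hosts was not tested, since strand is not in the table. The sequences are RefSeq's on GRCh38.p14, the 250 bases before the annotated start, 5′ to 3′ on the strand of the gene. Capitals mark CCGGAAG or its reverse complement CTTCCGG, the core bound by ETS-type factors. They lie at chr2:233251423-233251672 (plus strand), chr12:6970665-6970914 (minus strand, 1 of 2 starts in the table) and chr17:77088393-77088642 (plus strand).
ATG16L1: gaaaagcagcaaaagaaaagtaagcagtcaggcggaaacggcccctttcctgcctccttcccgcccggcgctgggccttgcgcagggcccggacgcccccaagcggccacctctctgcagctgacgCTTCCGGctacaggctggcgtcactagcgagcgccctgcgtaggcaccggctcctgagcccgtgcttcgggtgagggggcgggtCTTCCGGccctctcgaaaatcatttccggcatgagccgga
PHB2: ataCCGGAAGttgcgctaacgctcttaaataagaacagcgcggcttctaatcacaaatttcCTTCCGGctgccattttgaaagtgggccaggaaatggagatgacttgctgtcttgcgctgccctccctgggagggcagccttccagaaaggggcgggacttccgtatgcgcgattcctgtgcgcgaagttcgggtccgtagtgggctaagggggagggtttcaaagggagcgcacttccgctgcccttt
SNHG20: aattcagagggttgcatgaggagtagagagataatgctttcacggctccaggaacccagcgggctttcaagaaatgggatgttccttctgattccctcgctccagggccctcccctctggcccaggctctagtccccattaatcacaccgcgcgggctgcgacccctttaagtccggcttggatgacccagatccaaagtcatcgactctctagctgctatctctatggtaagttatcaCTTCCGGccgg

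The motif was found 2 times in the ATG16L1 window, 2 times in that of PHB2 and 1 time in that of SNHG20. It is present on either strand in 8.52% of all 35116 windows of this length. A CCAAT box, searched on both strands as CCAAT, was in none of the 3 windows shown and is present in 32% of all windows. Among the genes around members called after siATM, which also include SEC14L1 and SNHG22, 4 of 5 had CCGGAAG in a window. Among those around the other members it was 5 of 19. A gene counted if any of its windows held the motif, so these shares are not comparable with the 8.52% of single windows. ATG16L1 counted as around a called member, although it also holds the uncalled SCARNA5. The split by calls comes from the same data and is no test. Both motifs were chosen with the fold changes known, so these shares are descriptions, and a match is not a site that was shown to be bound.

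After sip53, 1 of the 17 tested scaRNAs, SCARNA17, was higher than with siNC and 0 were lower (limma; 4 higher and 1 lower at an unadjusted p below 0.05). Over all genes tested, 10.6% were called, 5.47% higher and 5.11% lower. Of the 17, 10 had a fold change above 0, against 54.2% of all genes tested. SCARNA17 had log2 values of 10.25 and 10.21 with sip53, against 9.98 and 9.89 with siNC. Its log2 fold change was 0.30 (SE 0.07, limma adjusted p = 0.0373), or 1.23-fold. Leaving out any 1 sip53 or siNC array ended the call (adjusted p up to 0.180), as did testing without the filter on dim genes (0.102), and centring arrays on their median. Fitting the 2 groups alone, or leaving out either siATM array, gave 5 calls instead, with SCARNA6, SCARNA9 and SCARNA9L also higher and SCARNA22 lower. The siNC arrays are the same ones as in the siATM comparison, so both differences share their error.

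Several members lay near the threshold after sip53. SCARNA9L had 6.79 and 6.76 with sip53, against 6.20 and 6.45 with siNC (log2 difference 0.45, SE 0.12, limma adjusted p = 0.0623). SCARNA6 had 7.59 and 7.64 with sip53, against 7.36 and 7.32 with siNC (0.27, SE 0.08, limma adjusted p = 0.0644). SCARNA22 had 9.14 and 9.25 with sip53, against 9.50 and 9.50 with siNC (-0.31, SE 0.09, limma adjusted p = 0.0666). In these 3 genes the groups did not overlap, where 33.1% of all genes tested were apart upward and 25.8% downward.

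SCARNA9 had 9.03 and 9.05 with sip53, against 8.78 and 8.78 with siNC, also apart, with a log2 difference of 0.26 (limma adjusted p = 0.114). The 2 mixed guides SCARNA12 and SCARNA10 had intervals of -0.09 to 0.32 and -0.13 to 0.19, and SCARNA2 had -0.12 to 0.32. Counting tested members whose groups did not overlap, 5 were higher and 1 lower with sip53, where 33.1% of all genes tested were apart upward and 25.8% downward. All 10 long members were above 0, with a median of 0.11, and all 7 tested short ones below 0, with a median of -0.07. This comparison and that of siATM share the siNC arrays, and the split by length followed the values, so it is no independent repeat.

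NSD2 and SCARNA22 inside it had similar differences after sip53, -0.29 and -0.31. NSD2 passed (SE 0.06, limma adjusted p = 0.0274), but it lost the call without any 1 sip53 or siNC array, the arrays that enter the difference. ATG16L1, PHB2 and SNHG20 had differences of -0.08, -0.04 and 0.03 and did not pass. The 6 untested members had differences from -0.15 (SCARNA15) to 0.43 (SCARNA14). SCARNA14 had 4.83 and 5.04 with sip53, against 4.47 and 4.55 with siNC.

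In siATM set directly against sip53, the siNC arrays do not enter the difference but do enter the estimate of its spread. Of the 17 tested scaRNAs, 4 were higher with siATM than with sip53, SCARNA12, SCARNA17, SCARNA6 and SCARNA16, and 0 were lower (limma; 7 higher and 1 lower at an unadjusted p below 0.05). Over all genes tested, 30.3% were called, 14% higher and 16.3% lower. Groups did not overlap for 9 members upward and 2 downward, where 31% and 34.4% of all genes tested were apart in these directions. Of the 17, 14 were above 0, against 47.8% of all genes tested. The median log2 difference of the 17 was 0.19, and that of all genes tested was -0.01. Without the filter the scaRNA median was 0.11. Of the 10 long members 9 were positive, and of the 7 tested short members 5 were. Spearman's rho with length was 0.17 over all 23 members here and 0.66 for sip53 against siNC, with no test of the difference.

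SCARNA12 had 10.28 and 10.26 with siATM, against 9.73 and 9.99 with sip53. The groups were apart, although the 2 sip53 arrays differed by more than the 2 siATM arrays (log2 difference 0.42, SE 0.09, limma adjusted p = 0.0108). SCARNA17 had 10.52 and 10.65 with siATM, against 10.25 and 10.21 with sip53 (0.35, SE 0.07, limma adjusted p = 0.00792). SCARNA6 differed by 0.29 (limma adjusted p = 0.0253) and SCARNA16 by 0.26 (limma adjusted p = 0.0124). Without sip53 replicate 1 only SCARNA17 was called, and without sip53 replicate 2 only SCARNA12. Without siATM replicate 1 there were 7 calls, 6 higher and 1 lower. SCARNA6 lost its call without siATM replicate 2 too (adjusted p up to 0.126 over these fits).

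SCARNA9 was at 9.18 and 8.91 with siATM, against 9.03 and 9.05 with sip53, a log2 difference of 0.00 (95% interval -0.20 to 0.21). SCARNA9L was lower with siATM than with sip53 by 0.31 on the log2 scale (limma adjusted p = 0.0995), which did not pass. SCARNA17 had its lowest values with siNC, intermediate ones with sip53 and its highest with siATM, and each neighbouring step in that order passed. For SCARNA6, SCARNA12 and SCARNA16 only the step between siATM and sip53 passed. ATG16L1, around SCARNA6, was lower with siATM than with sip53 by 0.19 (limma adjusted p = 0.0334), a call lost whichever array was left out (up to 0.154).

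Genes that make, carry and process these RNAs were read from lists written with earlier results of these data known. The core proteins showed no call after siATM. Of the C/D core, FBL, the methyltransferase fibrillarin, NOP58 and SNU13 were tested, with differences from -0.18 to 0.03. Of the H/ACA core, GAR1, NHP2 and NOP10 were tested, with differences from -0.13 to 0.08. All 6 were uncalled, where 25.5% of all genes tested were called (limma; of the 6, 2 lower and 0 higher at an unadjusted p below 0.05). With siATM set against sip53, FBL was lower by 0.26 (limma adjusted p = 0.0128) and SNU13 by 0.23 (limma adjusted p = 0.0162), and both lost the call without either sip53 array (adjusted p up to 0.0925 and 0.0882).

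Of 8 tested factors, of 10 listed, that assemble the particles, 3 were lower with siATM than with siNC and 0 higher (limma; 4 lower and 0 higher at an unadjusted p below 0.05). Over all genes tested, 13% were called lower and 12.5% higher. The median of the list was -0.17. RUVBL1, an ATPase of the assembly complex, had 8.20 and 8.12 with siATM, against 8.81 and 8.73 with siNC. It was lower by 0.61 (SE 0.06, limma adjusted p = 0.00102). RPAP3 was lower by 0.44 (limma adjusted p = 0.00412), and PIH1D1, its partner, by 0.31 (limma adjusted p = 0.0111; 0.0740 without siNC replicate 1). After sip53, 0 of the 8 were called, where 10.6% of all genes tested were (limma; of the 8, 2 higher and 0 lower at an unadjusted p below 0.05). With siATM set against sip53, 5 were lower and 0 higher, with a median of -0.29, where 16.3% and 14% of all genes tested were called, among them RUVBL1 (-0.60), RPAP3 (-0.48), NOPCHAP1 (-0.45) and SHQ1 (-0.36). SHQ1 lost its call without sip53 replicate 1 (adjusted p = 0.0649).

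Among 11 tested genes, of 15 listed, of Cajal bodies and of transport to the nucleolus, 2 were lower and 1 higher with siATM, with a median of -0.09. That is close to the 25.5% of all genes tested that were called. NOLC1, the nucleolar and Cajal body phosphoprotein that binds these particles, had 9.49 and 9.37 with siATM, 10.16 and 10.20 with sip53, and 9.90 and 9.96 with siNC. NOLC1 was lower by 0.50 with siATM than with siNC (SE 0.06, limma adjusted p = 0.00215) and by 0.75 than with sip53 (SE 0.06, limma adjusted p = 0.000415). GEMIN8, a subunit of the SMN complex, was higher by 0.39 (limma adjusted p = 0.00573). Against sip53, 4 genes of this list were lower with siATM and 1 higher, where 16.3% and 14% of all genes tested were called. GEMIN2, another SMN complex subunit, was lower by 0.59 (limma adjusted p = 0.0137), a call lost without sip53 replicate 1 (0.0804), and GEMIN8 was higher by 0.36.

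TGS1, which puts the trimethyl cap on independently transcribed small RNAs, was lower by 0.28 with siATM (limma adjusted p = 0.0213) and higher by 0.30 with sip53 (limma adjusted p = 0.0308), each against siNC. TGS1 lost the call after siATM without siATM replicate 2 or either siNC array. After sip53 it lost the call without any 1 sip53 or siNC array. With siATM set against sip53 it was lower by 0.58 (limma adjusted p = 0.00095) and kept that call whichever array was left out. COIL, the coilin gene, had 8.01 and 7.78 with siATM, 8.14 and 8.03 with sip53, and 7.98 and 7.84 with siNC, and passed in no comparison. PHAX, the export adaptor of small RNAs, was lower by 0.33 with sip53 (limma adjusted p = 0.0307), a call lost without either sip53 or either siNC array (up to 0.163).

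Of 8 tested genes, of 9 listed, for trimming the ends of small RNAs, 1 was lower with siATM and 0 higher (limma; 2 lower and 1 higher at an unadjusted p below 0.05), a share close to the 13% of all genes tested. It was EXOSC10, a nuclear exosome nuclease, with a log2 difference of -0.21 (limma adjusted p = 0.0294), which lost the call whichever array was left out (up to 0.130). DIS3, another exosome nuclease, was lower by 0.29 with sip53 (limma adjusted p = 0.0264), and lost the call without any 1 sip53 or siNC array (up to 0.150). Against sip53, 2 of these 8 genes were lower with siATM and 1 higher, where 16.3% and 14% of all genes tested were called. TENT4B, a poly(A) polymerase, was lower by 0.43 (limma adjusted p = 0.0127), EXOSC10 was lower by 0.19 (0.0356) and DIS3 was higher by 0.30 (0.00886). TENT4B lost the call without siATM replicate 2 or sip53 replicate 2 (up to 0.0778), DIS3 without sip53 replicate 2 (0.0618) and EXOSC10 whichever array was left out (up to 0.178). Of 10 listed genes of nonsense-mediated decay, which degrades many spliced host RNAs, 2 were tested, and 0 were called after siATM (limma; 1 higher at an unadjusted p below 0.05). Of long non-coding genes named SNHG or GAS5, most of which host small nucleolar RNAs, 10 were tested. With siATM, 1 was higher (SNHG17, 0.25) and 1 lower (SNHG33, -0.23). SNHG17 lost the call whichever array was left out, and SNHG33 without any 1 siATM or siNC array. After sip53, SNHG16 was lower by 0.35 (limma adjusted p = 0.0121), a call lost without any 1 sip53 or siNC array (up to 0.0870). With siATM set against sip53, SNHG18 (0.31) and SNHG16 (0.19) were higher and SNHG33 (-0.23) and SNHG15 (-0.21) lower, and each lost the call in 3 or more of 6 fits with 1 array left out (up to 0.260). This list was added after values were seen. Over all genes tested, 25.5% were called for siATM against siNC, 10.6% for sip53 against siNC and 30.3% for siATM against sip53. Counts this small do not set these long non-coding genes apart.

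Markers of other cells were read as lists too. The mean log2 level of the 3 named endothelial and fibroblast markers, of 4 listed, was 6.51 to 6.56 with siATM, 6.67 to 6.69 with sip53 and 6.47 to 6.52 with siNC. Within it LUM was higher by 0.68 and PECAM1 lower by 0.47 with siATM than with siNC. LUM was also higher by 0.49 with sip53 than with siNC (limma adjusted p = 0.0120). PECAM1 was also lower by 0.48 with siATM than with sip53 (limma adjusted p = 0.00795). CD68, the only named one of 4 haematopoietic markers, was at 12.07 to 12.11 with siATM, 11.77 to 11.82 with sip53 and 11.87 to 11.99 with siNC. The 6 named luminal markers of 7 averaged 7.93 to 8.06 with siATM, 7.999 to 8.021 with sip53 and 7.90 on both siNC arrays. Within it GATA3, a luminal transcription factor, was higher by 0.31 with siATM and by 0.65 with sip53, each against siNC (limma adjusted p = 0.0273 and 0.00417). KRT8, a luminal keratin, was higher by 0.25 with siATM than with sip53 (limma adjusted p = 0.0258), while GATA3 was lower by 0.34 (limma adjusted p = 0.0172). CD68 was higher by 0.29 with siATM than with sip53 (limma adjusted p = 0.0128), and FN1, a marker of the line, was higher by 0.43 with siATM than with siNC (limma adjusted p = 0.00201). No array value was 0, and the part of these markers in the scaRNA results was not tested.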

How the data were processed

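RNA from 6 MDA-MB-231 samples, 2 each for siATM, sip53 and siNC, was hybridised to 1 array each. The authors deposited 1 log2 value per probe set and array, between 1.33 and 14.2. The scale was read from the values, and background correction, summarisation and normalization are not given in the sources used here. Such arrays carry no read depth, and their number limits the precision.

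The array holds 53617 probe sets. The platform annotation used here gave 1 symbol to 16098 of them, several to 0 and none to 37519. They covered 14884 genes, and the probe set with the highest mean was used. Lengths and surrounding genes came from RefSeq by gene identifier, with 23 of 23 members matched. No coordinates of the members are given because no build is named for the table.

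Group means were fitted with limma (version 3.58.1, R 4.3.3) to all 6 arrays, with 3 residual and 7.29 total degrees of freedom. Two-sided p-values were adjusted over 10640 genes (Benjamini-Hochberg), and calls are those under 0.05. Intervals are 95% moderated intervals. Values of untested members come from a fit of all 14884 genes. Named genes were every called scaRNA, genes around scaRNAs, and called genes of the lists, up to 4 a list by size. Other members were named to account for all. The members, lists and rule were chosen with earlier results of these data known. A hand-made list of host genes gave way to RefSeq's bounds, since it placed SCARNA4 in another gene. Alternatives changed the filter, the scaling, the probe-set rule, the variance model, the replicate block and the arrays used.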

Additional observations from a re-analysis of the deposited data

How the results depend on the processing

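After siATM against siNC, the number of scaRNAs called was 4 to 7 over 14 alternatives, with 0 lower in each, and 5 to 6 with 1 array left out. SCARNA17, SCARNA6, SCARNA12 and SCARNA16 were called in all 14, which are not separate checks. Where 1 array of the group outside the comparison was left out, its other array added nothing to the estimate of the spread. Such a fit nearly repeats that of the 2 groups alone. After sip53 against siNC the count of 1 was 0 without the filter, 0 with arrays centred on their median over the tested genes, 0 with the replicate block, 3 with the filter at the 70th percentile, 5 with a variance trend and robust moderation, and 5 with the 2 groups alone. It ranged from 0 to 5 with 1 array left out. The counts of 5 were 4 higher (SCARNA17, SCARNA6, SCARNA9 and SCARNA9L) and 1 lower (SCARNA22). For siATM against sip53 the count of 4 ranged from 1 to 7 with 1 array left out, and from 3 to 6 under the other 8. The cause of these shifts was not tested.

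The labels give no pairing beyond the shared replicate numbers. Deviations of same-numbered arrays correlated by 0.036 for siATM and siNC, 0.028 for sip53 and siNC and 0.12 for siATM and sip53. With the replicate block, 6 scaRNAs were called for siATM against siNC and 5 for siATM against sip53. The median over the tested scaRNAs ranged over all alternatives from 0.11 to 0.28 for siATM against siNC, from 0.0013 to 0.09 for sip53 against siNC and from 0.11 to 0.26 for siATM against sip53. No named call turned its direction.

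Over all genes, 2708 were called for siATM against siNC, against 1447 without siNC replicate 1 and 1509 without siNC replicate 2. For sip53 against siNC, 1126 were called, against 481 without the filter, 1742 with a variance trend and 268 to 333 without 1 sip53 or siNC array. For siATM against sip53, 3219 were called, against 1845 and 1886 without sip53 replicate 1 or 2. With 2 arrays a group, precision is limited, and the 6 dim members entered a test only without the filter, where 0 of them were called after siATM (limma).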
